A study of Mus musculus with 22 samples.

Results

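The circadian clock genes described here are 10 genes of the daily transcription loop, chosen by symbol among the biological spots of the arrays: Arntl, Npas2, Per1, Per2, Per3, Cry1, Nr1d1, Nr1d2, Dbp and Tef. The arrays carried probes for all 10, and 8 of these were bright enough to be tested among the 16602 genes tested in all. The samples were epididymal white fat, an abdominal fat depot of male mice, taken here from the inbred strain C57BL/6JOlaHsd. The mice arrived at 10 weeks of age, ate for 3 weeks a feed whose fat gave 10% of its energy and for 6 weeks one whose fat gave 40%, and were then fasted. In an indirect calorimetry system, which records gas exchange, 10 mice were then kept for 6 h at 12% oxygen (hypoxia) and 12 mice at 20.9% oxygen (normoxia), and tissue was taken at the end of the exposure. Low-fat feeding is also mentioned in the text on treatment, for mice it does not name, and diet was left out of the model. The mice lived under 12 h of light and 12 h of darkness, and the sources used here do not give the time of day at which each was killed.

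Each mouse gave 1 array, on which its own RNA carried Cy5 and a pool of RNA from all the mice carried Cy3. Dyes were not swapped. Every value below is a log2 ratio of Cy5 to that pool, and a difference is hypoxia minus normoxia on the log2 scale. The series calls the samples of a group biological replicates. Arrays differed in brightness: in Cy5, median signals were 35.1 to 108.1 intensity units with backgrounds of 29 to 33. Between 15.6% and 76.8% of spots were well above that background, fewest on the 4 arrays of slide 1. The 22 arrays lay on 6 slides, of which 5 held 2 arrays of each group and slide 2 held 2 normoxia arrays alone. All 6 adipocyte markers (Adipoq, Plin1, Cidec, Lep, Fabp4 and Lipe) were measured, as the label of the tissue requires. In whole tissue, fewer cells of a type and less RNA per cell cannot be told apart.

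The clock is a loop of transcription and repression that runs in almost every cell of the body, fat cells included. ARNTL (BMAL1) pairs with CLOCK or its relative NPAS2, binds E-box letters and switches on the Period and Cryptochrome genes, the nuclear receptor genes Nr1d1 and Nr1d2 (REV-ERB alpha and beta) and the output genes of the Dbp family. The Period and Cryptochrome proteins then repress that pair, and the REV-ERB proteins repress Arntl at ROR elements, so that Arntl and the genes it drives peak at opposite times of day. In adipose tissue the clock is known to time fat storage, lipolysis and hormone secretion, and feeding and glucocorticoids are known to set its phase.

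The promoters of 5 of these genes are printed because their transcripts gave the differences and the correlations described below. Each window holds 250 bases before and 50 bases after a start from RefSeq's table of assembly GRCm38.p6, where 9 of the 10 genes matched, with 12 promoters. Lower case is plain sequence, and capitals mark an E-box (CACGTG), a D-box (TTATGTAA or TTACGTAA) or a ROR element (AGGTCA) on either strand. The ROR element was searched as the letters AGGTCA alone, without the bases beside them.
Arntl, second start, chr7:113207261-113207560 (+ strand): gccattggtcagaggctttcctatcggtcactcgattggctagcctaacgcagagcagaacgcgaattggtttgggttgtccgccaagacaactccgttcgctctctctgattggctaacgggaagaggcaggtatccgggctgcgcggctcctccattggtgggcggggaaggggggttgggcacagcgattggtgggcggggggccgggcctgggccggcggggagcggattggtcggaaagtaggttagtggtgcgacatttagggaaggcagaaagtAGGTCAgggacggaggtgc
Nr1d2, chr14:18239057-18239356 (- strand): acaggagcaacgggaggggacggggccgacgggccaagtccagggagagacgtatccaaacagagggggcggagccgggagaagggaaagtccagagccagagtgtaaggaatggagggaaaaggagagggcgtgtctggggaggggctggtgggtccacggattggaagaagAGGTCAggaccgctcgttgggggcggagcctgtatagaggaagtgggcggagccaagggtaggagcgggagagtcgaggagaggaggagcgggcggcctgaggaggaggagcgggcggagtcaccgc
Per1, first start, chr11:69098699-69098998 (+ strand): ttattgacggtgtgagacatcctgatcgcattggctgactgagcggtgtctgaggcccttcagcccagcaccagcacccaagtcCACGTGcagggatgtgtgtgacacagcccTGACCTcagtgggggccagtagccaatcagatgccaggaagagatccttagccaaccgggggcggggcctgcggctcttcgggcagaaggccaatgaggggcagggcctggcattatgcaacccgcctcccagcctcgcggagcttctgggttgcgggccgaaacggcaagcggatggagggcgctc
Dbp, chr7:45704997-45705296 (+ strand): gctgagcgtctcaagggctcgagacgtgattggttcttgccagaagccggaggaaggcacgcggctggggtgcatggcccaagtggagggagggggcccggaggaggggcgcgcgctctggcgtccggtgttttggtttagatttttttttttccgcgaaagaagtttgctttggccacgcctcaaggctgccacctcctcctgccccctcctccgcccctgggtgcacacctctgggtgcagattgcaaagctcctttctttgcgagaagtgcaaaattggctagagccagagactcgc
Tef, first start, chr15:81802423-81802722 (+ strand): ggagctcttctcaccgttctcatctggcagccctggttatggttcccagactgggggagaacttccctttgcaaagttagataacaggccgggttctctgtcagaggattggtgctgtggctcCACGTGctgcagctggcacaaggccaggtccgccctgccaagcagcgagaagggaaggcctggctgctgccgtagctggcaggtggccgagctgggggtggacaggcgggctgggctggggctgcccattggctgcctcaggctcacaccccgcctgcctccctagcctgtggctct
Positions below give the first base of the letters relative to the start. The first Per1 promoter held an E-box at -166 and a ROR element, read on the opposite strand, at -137. The first Tef promoter held an E-box at -127, and the Nr1d2 promoter a ROR element at -77. The second Arntl start had a ROR element at +31, and in the Dbp window none of the 3 was found. Over all 12 promoters, E-boxes stood in 4 (of Cry1, Per1 and Tef), against 7.15% of the 32851 promoters in the table. ROR elements stood in 3 (16.3% of all promoters) and a D-box in 1, that of Per3, which held it at both -205 and -158 (1.06% of all). A hypoxia response element (ACGTG or GCGTG, which overlaps CACGTG) was in 10 of 12, against 43.8% of all promoters. The glucocorticoid element ACANNNTGT was in 0 of 12, against 6.85% of all. These are matches of letters in short windows, and binding was not measured.

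None of the 8 tested clock genes passed the test between hypoxia and normoxia. Dbp, the output factor of the loop, had the lowest difference, -0.30 ± 0.13 (SE), and Per1, a repressor of the loop, the highest, 0.24 ± 0.12. Arntl, Per2, Per3, Nr1d1 and Nr1d2 lay within 0.08 of 0, and Tef lay at -0.14 ± 0.09. The test was limma's moderated test with p-values adjusted by Benjamini-Hochberg over all 16602 genes. At an adjusted p under 0.05 it called 0 of 8 clock genes, where the share called over all genes was 0%, and the smallest adjusted p of any gene was 0.0692. At an unadjusted p under 0.05 it found 1 of 8 clock genes, where the share over all genes was 5.30% (880 genes, 427 higher and 453 lower), and that share gives no ground to set the clock genes apart. The median difference was 0.01 over the 8 clock genes, 4 above 0 and 4 below, and 0.001 over all genes.

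**Figure D1:**
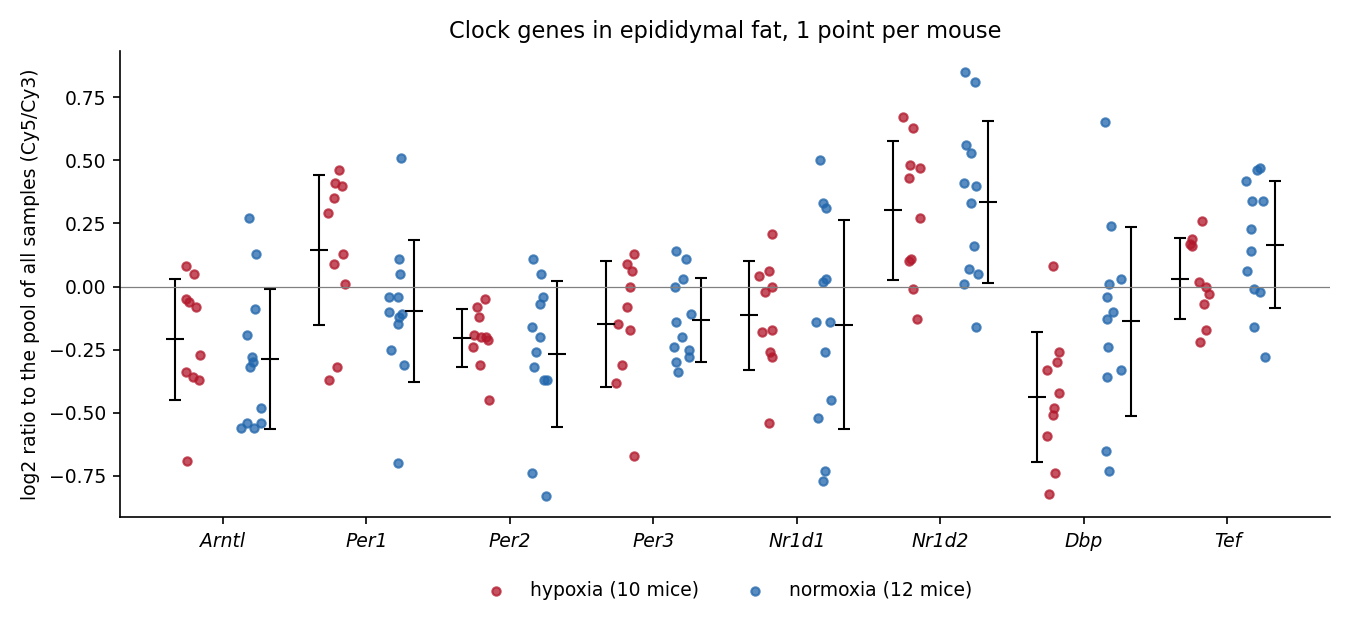
Log2 ratio of Cy5 to the pool of all samples for the 8 tested clock genes, 1 point per mouse, with hypoxia (10 mice, red) left of normoxia (12 mice, blue) and bars for mean and SD. Dbp sits lower in 9 of 10 hypoxia mice than the normoxia mean, Per1 sits higher in 8 of 10, and the groups overlap for every gene.

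Dbp encodes a PAR bZIP transcription factor that carries the rhythm of the loop to genes of metabolism through D-box letters. Its ratio ran from a lowest value of -0.82 over a median of -0.45 to a highest of 0.08 in hypoxia, and from -0.73 over -0.11 to 0.65 in normoxia. The means were -0.44 ± 0.26 in hypoxia and -0.14 ± 0.37 in normoxia (SD, n = 10 and 12). The groups overlapped, although 9 of 10 hypoxia mice lay below the normoxia mean and only hypoxia replicate 9 lay above it. The difference of -0.30 has a 95% confidence interval of -0.57 to -0.03, a 1.23-fold lower level, with p = 0.0297 and an adjusted p of 0.874 in limma. A two-sided permutation test gave p = 0.0431, and p = 0.0428 with labels permuted within slides. The difference was below 0 within each of the 5 slides that held both groups, from -0.64 on slide 3 to -0.05 on slide 1, with a mean of -0.28. The probe lies on chromosome 7 at 52965322 to 52965381 (mm9, plus strand) and was well above background on all 22 arrays. A second Dbp probe, at 52965461 to 52965520, differed by -0.33, and the probes correlated at 0.79 over the 22 mice. The unadjusted p of Dbp lay above 0.05 when normoxia replicate 11 (p = 0.0596) or 12 (p = 0.0539) or hypoxia replicate 7 (p = 0.0622) or 8 (p = 0.0582) was left out of the limma fit.

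Tef encodes the PAR bZIP relative that binds the same letters as Dbp. In hypoxia its ratio ran from -0.22 over a median of 0.01 to 0.26, with a mean of 0.03 ± 0.16, and in normoxia from -0.28 over 0.19 to 0.47, with a mean of 0.17 ± 0.25 (SD, n = 10 and 12). Of the hypoxia mice, 8 of 10 lay below the normoxia mean, and the groups overlapped throughout. The difference of -0.14 did not pass (95% confidence interval -0.33 to 0.05, p = 0.156, adjusted p = 0.974 in limma), and it lay below 0 on 4 of 5 slides. The Tef probe lies on chromosome 15 at 81657221 to 81657280 (mm9, plus strand).

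Per1 encodes a Period repressor, and its gene is known to answer glucocorticoid and stress signals directly as well as the loop. Its ratio ran from -0.37 over a median of 0.21 to 0.46 in hypoxia and from -0.70 over -0.10 to 0.51 in normoxia, with means of 0.14 ± 0.30 and -0.10 ± 0.28 (SD, n = 10 hypoxia and 12 normoxia mice). Above the normoxia mean lay 8 of 10 hypoxia mice, and the other two, replicates 5 and 10, were lower than all normoxia mice but 1. The difference of 0.24 had a 95% confidence interval with its lower end at 0.00 and its upper end at 0.48 (p = 0.0525, adjusted p = 0.944 in limma). The permutation test gave p = 0.0683, and 0.0927 within slides. Slides 5 and 6 carried the difference, at 0.64 and 0.62, while slides 1, 3 and 4 gave 0.13, -0.10 and -0.07. The probe lies on chromosome 11 at 68923364 to 68923423 (mm9, plus strand) and was well above background on all 22 arrays. A second Per1 probe was well above background on 1 array and was not tested.

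The other Period genes had differences close to 0. Per2, the Period gene most tied to the core rhythm, differed by 0.06 ± 0.10 (95% confidence interval -0.14 to 0.26, p = 0.534). Its ratios spanned -0.45 to -0.05 around a median of -0.20 in hypoxia and -0.83 to 0.11 around -0.23 in normoxia. The SD was 0.11 in hypoxia and 0.29 in normoxia, and the difference of these spreads was not tested. Normoxia replicates 1 and 6 were the lowest, at -0.83 and -0.74, and no hypoxia mouse lay below -0.45. Per3, the Period gene that mice can lose with little effect on rhythm, differed by -0.02 ± 0.09 (95% confidence interval -0.20 to 0.17, p = 0.859). Its ratios ran from -0.67 over a median of -0.11 to 0.13 in hypoxia and from -0.34 over -0.17 to 0.14 in normoxia, with hypoxia replicate 3 the lowest. The probes of both genes were dim, well above background on 17 and 10 of 22 arrays. They lie on the minus strand of chromosome 1 at 93313046 to 93313105 (Per2) and of chromosome 4 at 150379256 to 150379315 (Per3, mm9). Array brightness, the share of spots above background, went with both: Per2 correlated with it at r = -0.59 between mice (rho = -0.53, permutation p = 0.00161, adjusted p = 0.0129 over the 8 genes). Per3 gave r = -0.53 (rho = -0.30, p = 0.0175, adjusted p = 0.07). Without normoxia replicate 6 and hypoxia replicate 3 these were -0.43 and -0.16. The part of brightness in their values was not tested, and for the other 6 clock genes the adjusted p was 0.71 or more.

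The REV-ERB genes, which feed back on Arntl, had differences close to 0 as well. Nr1d1 had ratios of -0.54 to 0.21 with a median of -0.10 in hypoxia, against -0.77 to 0.50 with a median of -0.14 in normoxia. The difference was 0.04 ± 0.13 (95% confidence interval -0.24 to 0.31, p = 0.781). The normoxia mice spread more widely than the hypoxia mice, with an SD of 0.21 in hypoxia and 0.41 in normoxia, and this was not tested either. Nr1d2 ran from -0.13 over 0.35 to 0.67 in hypoxia and from -0.16 over 0.37 to 0.85 in normoxia, a difference of -0.03 ± 0.12 (95% confidence interval -0.28 to 0.22, p = 0.795). A second Nr1d2 probe differed by 0.05, and the probes correlated at 0.67. In mm9 the Nr1d1 probe spans 98630526 to 98631028 on the minus strand of chromosome 11, that is 503 positions for its 60 bases, and the Nr1d2 probe lies at 19036568 to 19036627 on the minus strand of chromosome 14.

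Arntl, the activator, had ratios from -0.69 over a median of -0.18 to 0.08 in hypoxia and from -0.56 over -0.31 to 0.27 in normoxia. Its difference was 0.08 ± 0.11 (95% confidence interval -0.14 to 0.30, p = 0.473), and the groups overlapped across nearly their whole range. The sign turned under Feature Extraction's own log ratio, to -0.04, as that of Per2 did, to -0.03. The Arntl probe lies on chromosome 7 at 120457261 to 120457320 (mm9, plus strand) and was well above background on 13 arrays. Npas2, the other activator, was well above background on 2 arrays and Cry1, a Cryptochrome repressor, on 1, so neither was tested. With dim probes kept in, Cry1 differed by 0.10 ± 0.07 (95% confidence interval -0.05 to 0.25, p = 0.168) and Npas2 by 0.02 ± 0.06 (-0.11 to 0.14, p = 0.806).

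Around these genes, 40 further genes of the clock and its outputs were listed, and 36 of them were measured. None passed the adjusted threshold, 27 lay above 0 and 9 below, and the median difference was 0.08, against 0.001 over all genes. The 14 measured outputs had a median of 0.14, 13 above 0 and 1 below, and the medians of the other parts ran from -0.01 to 0.09. At an unadjusted p under 0.05, 5 of the 36 were higher and 2 lower in hypoxia, against 5.30% of all genes in both directions together. The list was chosen with earlier results of these data known, so its counts and medians are a description with no test. The higher ones included 3 of the 14 measured genes listed as outputs. They were Tsc22d3 (GILZ, an anti-inflammatory leucine zipper protein), Sgk1 (a kinase of ion transport) and Fkbp5 (a chaperone of the glucocorticoid receptor). Tsc22d3 averaged -0.11 ± 0.18 in hypoxia and -0.39 ± 0.15 in normoxia (SD), a difference of 0.28 ± 0.08 (SE, p = 0.0012). Sgk1 differed by 0.44 ± 0.13 (p = 0.00273) and Fkbp5 by 0.46 ± 0.16 (p = 0.00826). Between mice, with group means removed, the r of Tsc22d3, Sgk1 and Fkbp5 with Dbp was 0.03, 0.02 and -0.30. With Per1 it was 0.49, 0.28 and 0.22. Whether these 3 follow the clock in this tissue was not tested. The other 2 higher genes were Tipin, a replication fork protein that partners Timeless, at 0.22 ± 0.08 (p = 0.0115), and Nfil3 (E4BP4), which competes with the Dbp family for D-box letters, at 0.16 ± 0.08 (p = 0.0418). Both of the lower ones are kinases that mark clock proteins: Gsk3b at -0.27 ± 0.10 (p = 0.0142) and Csnk1a1 at -0.20 ± 0.09 (p = 0.0334). Of the listed genes with no such p, Clock, the partner of ARNTL, differed by 0.03 ± 0.13. Rorb, Bhlhe41, Fbxl21 and Upp2 were too dim to test.

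**Figure D2:**
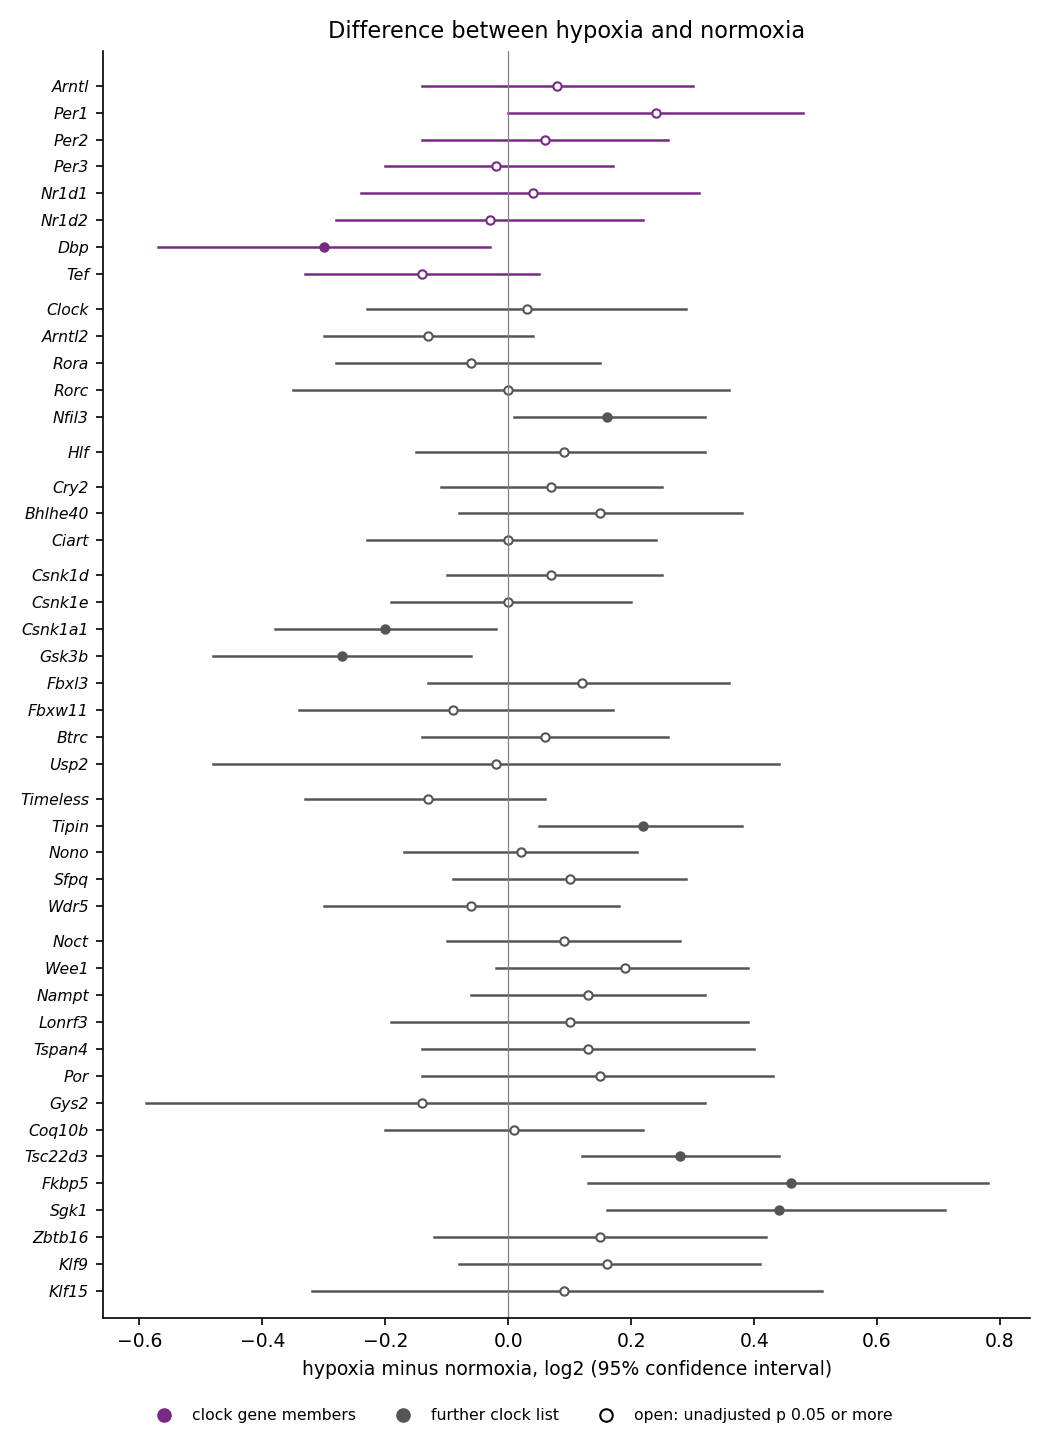
Difference between hypoxia and normoxia in log2 with its 95% confidence interval for the 8 tested clock genes (purple, top) and the 36 measured genes of the further list (grey). Filled points have an unadjusted p under 0.05, as Dbp, Gsk3b and Csnk1a1 have on the lower side and Tsc22d3, Sgk1, Fkbp5, Tipin and Nfil3 on the higher side, and no gene passed after adjustment.

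Because Dbp and Per1 lay on opposite sides of 0, Per1 minus Dbp was formed in each mouse. Of the 8 tested genes, Dbp had the lowest and Per1 the highest difference, and the pair was chosen after these were seen. The choice itself makes the gap between groups large, so the quantity is a description with no test. It averaged 0.58 ± 0.41 in hypoxia and 0.04 ± 0.25 in normoxia (SD, n = 10 and 12). In hypoxia it ran from -0.06 over a median of 0.57 to 1.14, and in normoxia from -0.54 over 0.01 to 0.39. Above the highest normoxia mouse lay 7 of 10 hypoxia mice, and replicates 5, 9 and 10 lay within the normoxia range. The mean was higher in hypoxia on each of the 5 slides with both groups, by 0.12 on slide 4 at the least and 1.09 on slide 5 at the most. In all other settings, each left-out mouse included, the difference stayed between 0.48 and 0.61.

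**Figure D3:**
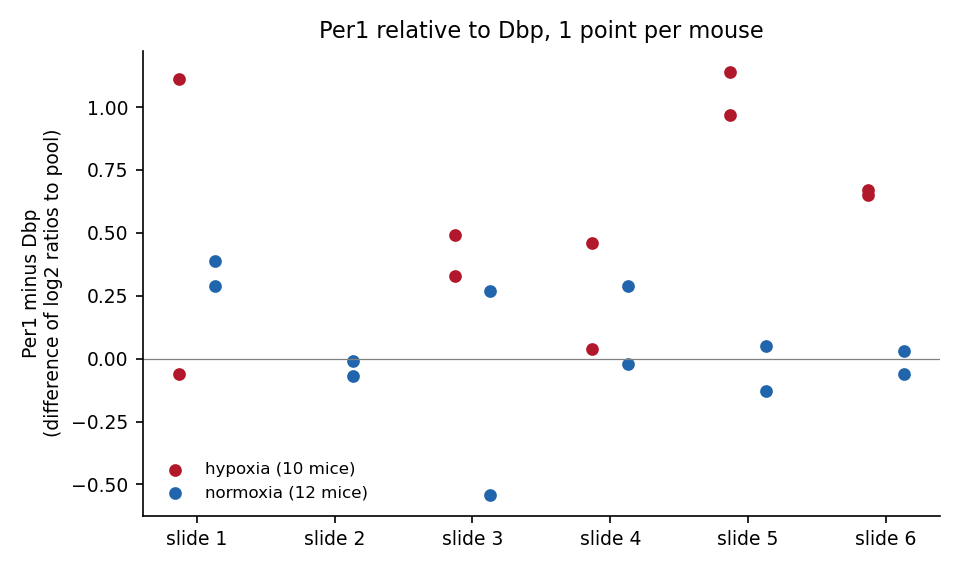
Per1 minus Dbp, as a difference of log2 ratios to the pool, for each mouse by slide, with hypoxia (red) left of normoxia (blue). The slide means are higher in hypoxia on all 5 slides that hold both groups, and slide 2 holds normoxia mice alone. The pair was chosen after its values were seen.

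Clock transcripts varied from mouse to mouse within each group. The residual SD was 0.34 for Nr1d1, 0.33 for Dbp and 0.30 for Nr1d2, against a median of 0.23 over all genes tested. Larger SDs were found in 11% of genes for Nr1d1, in 12.9% for Dbp and in 17.8% for Nr1d2. Per1 (0.29) and Arntl (0.26) were next, and Per2 (0.23), Tef (0.21) and Per3 (0.21) lay at or below the median.

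The 8 genes were therefore set against each other between mice, with group means removed, over 28 pairs. In these 22 mice the driven genes tended to stand high or low together and opposite to Arntl, but no pair passed after adjustment over the 28. All 21 pairs without Arntl had r above 0, from 0.06 to 0.64, and 6 of the 7 pairs with Arntl had r below 0. The 28 pairs are made from 8 genes, so their signs are not independent. The share of such signs over pairs of other genes was not computed. Arntl and Nr1d1 lay near 0, at -0.03. The points share arrays, slides and the pool, and with group and slide means removed 20 of 21 pairs without Arntl had r above 0 and 7 of 7 pairs with it had r below 0. Of these, Arntl and Per3 turned to -0.14, against 0.01 with group means alone removed. At an unadjusted permutation p under 0.05 there were 9 pairs, 6 without Arntl and 3 with it.

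The closest pair was Nr1d2 and Dbp, at r = 0.64 (rho = 0.56, permutation p = 0.00221, adjusted p = 0.0619). Without normoxia replicates 5 and 11, the mice farthest from the median of Nr1d2, r was 0.47, and with slide means removed it was 0.45. The pair passed with Feature Extraction's own log ratio (r = 0.72, adjusted permutation p = 0.00364), and over all alternatives its adjusted p ran from 0.00364 to 0.901 (in hypoxia alone). Nr1d1 and Dbp gave r = 0.55 (rho = 0.57, p = 0.0162, adjusted p = 0.1). It was 0.64 without normoxia replicates 6 and 9, the mice farthest from the median of Nr1d1. Arntl and Dbp ran opposite, at r = -0.54 (rho = -0.48, p = 0.0132, adjusted p = 0.1), and -0.64 without normoxia replicate 1 and hypoxia replicate 8. The r of Arntl and Dbp was -0.11 in the 10 hypoxia mice and -0.75 in the 12 normoxia mice, and this difference was not tested. Hypoxia replicate 8 had the lowest Arntl of all mice (-0.69) with a Dbp of -0.74.

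Dbp and Tef, the PAR bZIP pair, gave r = 0.53 (rho = 0.39, p = 0.02, adjusted p = 0.1), which was 0.28 without normoxia replicates 1 and 11. Per1 and Tef gave r = 0.51 (rho = 0.46, p = 0.0148, adjusted p = 0.1), and the pair of REV-ERB genes the same r (rho = 0.61, p = 0.0215, adjusted p = 0.1). The remaining 3 pairs, Arntl with Per1, Arntl with Nr1d2 and Per1 with Nr1d1, had r of -0.45, -0.45 and 0.43 (rho -0.45, -0.46 and 0.44, each with an adjusted permutation p of 0.136). Without the 2 farthest mice these were -0.18, -0.48 and 0.16. Per1 and Dbp gave r = 0.42 over all mice (rho = 0.34, permutation p = 0.0581, adjusted p = 0.157), with -0.10 in the 10 hypoxia mice and 0.74 in the 12 normoxia mice. The difference between these group values was not tested.

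**Figure D4:**
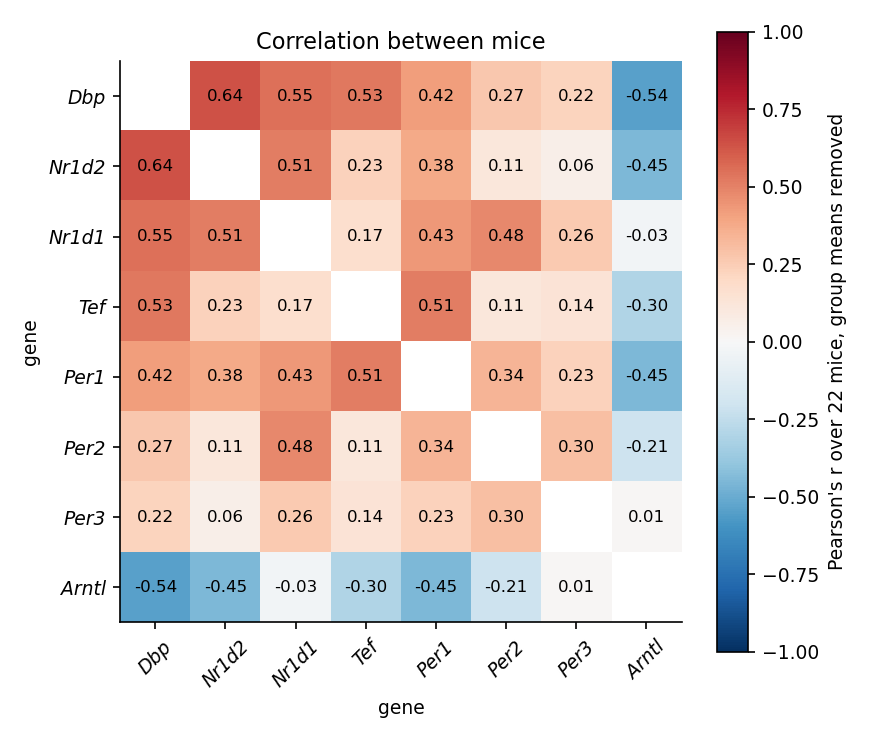
Pearson's r between mice for each pair of the 8 tested clock genes, over 22 mice with group means removed, on a colour scale from -1 (blue) to 1 (red). The pairs among Dbp, Nr1d2, Nr1d1, Tef, Per1, Per2 and Per3 are all above 0, and the Arntl row is below 0 except with Per3, at 0.01.

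**Figure D5:**
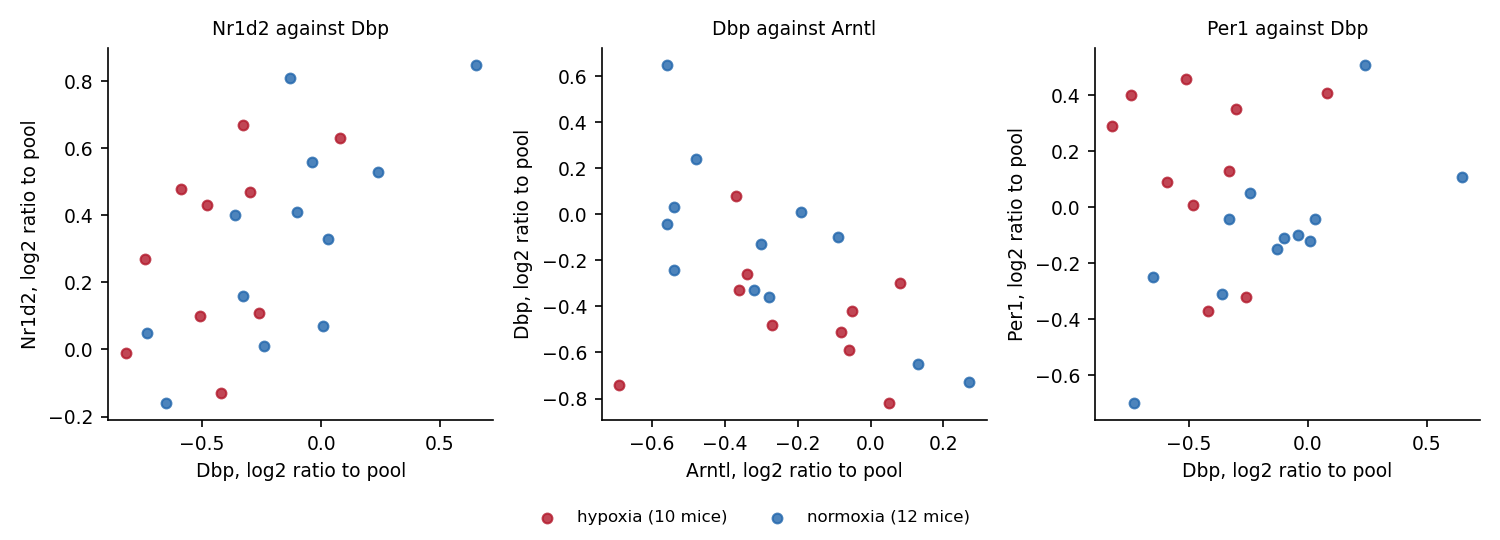
Log2 ratios to the pool of 3 pairs of clock genes, 1 point per mouse, hypoxia in red (10 mice) and normoxia in blue (12 mice). Nr1d2 and Dbp have r = 0.64 with group means removed (0.48 in hypoxia, 0.72 in normoxia). Arntl and Dbp have r = -0.54 (-0.11 in hypoxia, -0.75 in normoxia), and neither pair passed after adjustment. In the panel of Per1 and Dbp 7 hypoxia mice lie to the upper left, at high Per1 for their Dbp. That pair was chosen after its values were seen.

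The signs were more uniform in normoxia, a difference between groups that was not tested, and 1 mouse decided much of the pattern. In normoxia alone 21 of 21 pairs without Arntl were above 0 and 7 of 7 with it below, and in hypoxia alone 15 of 21 and 4 of 7. The pairs of Arntl above 0 in hypoxia were those with Nr1d1 (0.78), Tef (0.52) and Per3 (0.17). In normoxia these were -0.33, -0.68 and -0.16. No pair passed in hypoxia alone, where the smallest adjusted permutation p was 0.212. Normoxia replicate 1 had the highest Arntl of all mice (0.27) and the lowest Per1 (-0.70), Per2 (-0.83) and Tef (-0.28) of all mice. This mouse was also among the 2 farthest from the median in the germ cell and sperm list and in the endothelium list described below. At the other end, normoxia replicate 11 had Dbp at 0.65 and Nr1d2 at 0.85, both the highest, with Arntl at -0.56. Without normoxia replicate 1, 2 pairs in place of 9 had an unadjusted permutation p under 0.05, and the signs held in 18 of 21 and 4 of 7 pairs.

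Markers of other cells also moved with these genes between mice. Over 72 correlations of the 8 genes with 9 marker lists, 2 passed. Nr1d2 went against the germ cell and sperm list (r = -0.71, rho = -0.75, permutation p = 0.00035, adjusted p = 0.0187, and -0.69 without the 2 farthest mice). Of that list 4 of 5 genes were measured (Smcp, Prm1, Prm2 and Tnp1, but not Tnp2), and its mean ran from -2.28 to 0.71 in hypoxia and from -2.58 to 2.28 in normoxia. Dbp and Nr1d1 gave r = -0.63 and r = -0.64 with it (rho = -0.60 and -0.61, permutation p = 0.00404 and 0.0047, adjusted p = 0.0677 each, and -0.59 each without the 2 farthest mice). Arntl had the opposite sign, r = 0.53 (rho = 0.46, permutation p = 0.0166, adjusted p = 0.17), and 0.31 without the 2 farthest mice. Per1 gave r = -0.50 (rho = -0.38, permutation p = 0.0201, adjusted p = 0.181), and -0.10 without them. Those 2 mice were normoxia replicate 1 and hypoxia replicate 10.

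Tef went against the endothelium list, 4 of 4 measured (r = -0.71, rho = -0.71, permutation p = 0.00052, adjusted p = 0.0187, and -0.59 without the 2 farthest mice). The 2 farthest mice of that list were normoxia replicates 1 and 8. The list ran from -0.23 to 0.20 in hypoxia and from -0.38 to 0.19 in normoxia. Between the groups, 35 of 40 markers were measured and none passed after adjustment. At an unadjusted p under 0.05, 8 were higher and 0 lower in hypoxia, against 5.30% of all genes in both directions together. Among these 8 were 3 of 4 smooth muscle genes, with a list median of 0.41, and 3 of 3 red blood cell genes, with a list median of 0.43. On the lower side, with no such p, lay the germ cell and sperm list (median -0.53) and the 1 measured epididymis gene (-0.63). The part of other cells in the values of the clock genes was not tested.

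Which genes behaved most like a clock gene between mice was read from Pearson's r with group means removed, over the 22 mice and 16504 tested genes with a value on every array. This is a description, given with no test, and the points share arrays and the pool. Among clock genes, Nr1d2 stood 76th from the top in likeness to Dbp, Nr1d1 231st and Tef 316th, and Arntl stood 192nd from the bottom. Per1, Per2 and Per3 stood farther off, at 977th, 3022nd and 3970th from the top. In likeness to Arntl, Dbp stood 51st from the bottom, while Per3 and Nr1d1 stood mid-order, at 8809th and 9971st from the top. The genes most like Dbp were Slc5a6 (a vitamin transporter, r = 0.80), Adrb3 (the beta-3 adrenergic receptor of fat cells, 0.80), C1ra (0.79), Adrb1 (the beta-1 adrenergic receptor, 0.77) and Dock11 (0.77). Adrb3 differed between the groups by -0.76 ± 0.26 (p = 0.00703) and Adrb1 by -0.28 ± 0.12 (p = 0.0292), both on the same side as Dbp, and Slc5a6 by -0.19 ± 0.16 (p = 0.223). C1ra and Dock11 lay on the other side, at 0.10 ± 0.13 (p = 0.451) and 0.07 ± 0.11 (p = 0.527). No gene passed after adjustment. The genes least like Dbp were Specc1 (-0.79), Cdkn1a (the cell cycle inhibitor p21, -0.77), Lipf (-0.76), Ubd (-0.76) and Adamts4 (-0.75).

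For Per1 the closest were Tns2 (0.83), Klf13 (0.81), Cyp2f2 (0.74), Pcdhga9 (0.73) and Plagl1 (0.73). Klf13, a Krüppel-like transcription factor, was higher in hypoxia by 0.21 ± 0.08 (p = 0.014, unadjusted). The most opposed to Per1 were Pcdh12 (-0.83), Lsm4 (-0.75), Cmip (-0.75), G6pc3 (-0.74) and Reps2 (-0.73). For Arntl the closest were Slc48a1 (0.73), Gm5796 (0.72), Kif3b (0.71), Ropn1l (0.70) and Tacc3 (0.68), and the most opposed were Hspb8 (-0.68), Fcgrt (-0.68), Ppp1r9b (-0.67), Ccl24 (-0.65) and Ankmy2 (-0.64). Of the 36 measured genes of the further clock list, Ciart, a repressor of the CLOCK pair, had the highest r with Dbp, 0.57. Its r with Per1 was 0.49. Klf15 and Klf9 came next with Dbp, at 0.54 and 0.52, with 0.43 and 0.57 for Per1. The list ran down to Lonrf3, at -0.32 with Dbp and -0.41 with Per1.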

How the data were processed

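Arrays of 22 mice were used. Agilent Feature Extraction 10.7.3.1 made the deposited scanner files, per the submitters' processing notes. These deposited files hold intensity values as scanned, from which the mean signal and median background of each spot were taken. The same deposited files hold its log10 ratio, and the authors' deposited value table holds log2 levels whose normalization the sources used here do not give. Both served as alternatives. In limma 3.58.1 (R 4.3.3), background was corrected with normexp (offset 50) and each array by loess (control spots weighted 0, outlier spots dropped). Probes counted as tested with Cy5 well above background on 10 or more arrays, and the brightest probe stood for a gene. RefSeq's GRCm38.p6 table updated names (27235 probes by accession, 3581 by symbol, 565 by synonym, and 24300 kept the file's name). Group was the only term in lmFit and eBayes, and the median standard error of a difference was 0.098. Probe coordinates are those of the files (mm9), without exon or UTR. Correlations between mice used 100000 permutations within groups and Benjamini-Hochberg adjustment per family. No 2 arrays agreed closely enough to count as 1 sample. Named are the clock genes, listed clock genes with an unadjusted p under 0.05, and the 5 genes nearest and 5 most opposed to Dbp, Per1 and Arntl. Clock, Ciart, Klf9, Klf15 and Lonrf3 were named after their values were seen. The clock genes and lists were chosen with earlier results of these data known.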

Additional observations from a re-analysis of the deposited data

Results flagged for a closer look

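Dixon's criterion, which picks out a single value remote from the rest, was applied to 74 genes, each in the hypoxia group only. It was not applied to the normoxia values, so outlying normoxia mice were not looked for. Chance meets the criterion in about 1 of 20 groups, or 3.7 of these. It was met in 3, none of them in the hypoxia values of the 8 clock genes. Csnk1d, the clock kinase, stood at -0.17 in hypoxia replicate 5 and at 0.16 to 0.46 in the other hypoxia mice. Cdkn1a, the gene among the most opposed to Dbp, stood at 0.77 in hypoxia replicate 8 and at -0.38 to 0.11 in the others. Gm5796, near to Arntl between mice, stood at 0.40 in hypoxia replicate 2 and at -0.44 to -0.05 in the others.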

How the results depend on the processing

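In the 37 alternatives to the reported limma fit, none of the clock genes that could be tested was called, and Dbp (-0.41 to -0.18), Per1 (0.16 to 0.32) and Tef (-0.23 to -0.09) kept their signs. Dbp's unadjusted p lay above 0.05 without the slide of 1 group (p = 0.0588), in the deposited value table (p = 0.358) and with the replicate block (p = 0.16). Signs turned for 5 genes whose reported differences were near 0: Arntl (-0.04) and Per2 (-0.03) with Feature Extraction's log ratio, Nr1d1 with array weights (-0.05) and the deposited table (-0.02), Nr1d2 with the mean of all tested probes (0.01), and Per3 with slide as a fixed block, without the slide of 1 group and with permutation within slides (0.01 each) and in the deposited table (0.13). With mice left out in turn, Per3 ran from -0.05 to 0.04, Nr1d1 from -0.02 to 0.10 and Nr1d2 from -0.08 to 0.02. Of all genes, 1 was called with Feature Extraction's ratio, with probes above background on all arrays and with scaling between arrays, 2 with slide as a fixed block and without the dim arrays, and 4 with array weights. With mice left out 0 to 3 were called (3 without hypoxia replicate 7, 1 without normoxia replicate 4 or 8 or hypoxia replicate 4).

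Of the 28 pairs, 2 were called with Feature Extraction's ratio (Nr1d2 and Dbp, r = 0.72, Nr1d1 and Nr1d2, r = 0.62), 1 with scaling between arrays, and 0 to 3 with mice left out (3 without hypoxia replicate 8, 2 without normoxia replicate 2, 1 without normoxia replicate 4 or 7 or hypoxia replicate 2, 5 or 10). Per1 and Dbp turned to -0.10 in hypoxia alone. The cause of these changes was not tested. The scaling, the group differences without the dim arrays and the left-out mice for pairs were chosen after seeing the data. Aquantile normalization leaves the ratios as they are. The replicate numbers do not pair the mice: over 10 pairs the deviations of same-numbered mice correlated at -0.47 to 0.25, 2 above 0.1. With the replicate block 0 genes were called, Per3 was 0.03 and Nr1d2 0.04. Dim signal limits Arntl, Per2 and Per3 most, and Cry1 and Npas2 lay below the tested range.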

Other observations

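The mice were put in order by the mean of the 7 driven genes less Arntl, which stood alone because Npas2 was too dim. Arntl itself was well above background on 13 arrays. This order is a description, and its tie to time of day or to other cells in the tissue was not tested. The score averaged 0.15 ± 0.25 in hypoxia and 0.25 ± 0.46 in normoxia (SD, n = 10 and 12). Hypoxia mice ran from -0.17 to 0.52 and normoxia mice from -0.76 to 0.83. The lowest was normoxia replicate 1 and the highest normoxia replicate 11, so both ends of the order were normoxia mice.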
